A study of Danio rerio with 2 samples.

Results

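The cell cycle and mitosis genes of the zebrafish oocyte are described here, from cyclins and cyclin-dependent kinases (CDKs) to the spindle checkpoint and the licensing of replication. They were taken by name, 42 names in all. The rule uses no measured value, but the names were chosen with earlier results of these data known. A table of gene IDs and symbols gave 42 genes for 41 of these names out of 22328 genes listed. *mcm6* stood for 2 genes, and *incenp* (inner centromere protein) had no match. The name *bub1bba* was matched to *bub1bb* after its closing letter was dropped, and *fzr1a* was found under the synonym FZR1.

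Ovary mRNA of adult AB strain zebrafish was sequenced for 2 genotypes, sox3+/+ (labelled WT) and sox3-/- (labelled KO), with 1 library per genotype made from RNA of 3 fish. The sox3-/- fish came from heterozygous crosses and carry a frame-shift deletion made with CRISPR/Cas9 in all tissues, and which of the mutant lines gave the RNA is not given in the sources used here. No replicate library stands behind any value, so the spread between fish is unknown and no test was run. Levels are FPKM (fragments per kilobase of transcript and library size), which allows levels of different genes to be compared per length. The RNA was selected by its poly(A) tail, and FPKM does not correct for any difference in this selection between genes. Where 2 values are given the library labelled WT comes first.

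The targeted gene *sox3* (SOX3, ENSDARG00000053569) was at 1.18 and 2.16 FPKM, higher in the library labelled KO, for which reason both libraries go by their labels throughout. By quantitative PCR the study reports the opposite direction, less *sox3* RNA in knockout ovaries, and proposes that the mutant transcript decays. On western blots it reports no Sox3 protein in either mutant line. What remains of a mutant transcript can still be sequenced. Why *sox3* was higher in the library labelled KO was not tested, and its FPKM alone does not check the label. The aromatase gene *cyp19a1a* (CYP19A1), which the study places under Sox3, was at 2.04 and 1.12 FPKM, lower in the library labelled KO. Both *sox3* and *cyp19a1a* are from 1 to under 10 FPKM, where 51.7% of all genes were at least 1.4-fold apart between the libraries. The table holds neither reads per gene nor transcript lengths, which leaves the counting error of each gene unknown. Among 3000 genes at 0.05 to 0.4 FPKM in both libraries, 454 (15.1%) had the very same value in both. All 10 measured oocyte markers were within 1.4-fold of each other between libraries, summing to 3137 and 3048 FPKM, so the defining genes of the oocyte were present in both. The 13 genes listed as markers of the somatic follicle cells (granulosa and theca) summed to 207 and 291 FPKM. Most of this sum came from the 3 steroid synthesis genes named next, so it is no measure of somatic cell RNA. Among the 8 at 1 FPKM or more, 3 were at least 1.4-fold higher in the library labelled KO and 4 lower. The shares of all such genes were 15.1% and 17.5%. Higher were the most abundant of the 8 markers, the steroid synthesis genes CYP11A1 at 105.49 and 153.47 FPKM, *hsd3b2* at 51.65 and 77.18 FPKM and CYP17A1 at 30.73 and 48.96 FPKM. Lower were *cyp19a1a*, *gsdf* at 6.62 and 4.36 FPKM, *star* at 1.88 and 0.46 FPKM and one FOXL2 gene at 3.61 and 1.47 FPKM. By their higher value these 4 were from 1 to under 10 FPKM, where 51.7% of all genes were at least 1.4-fold apart. The gonadotropin receptor genes *fshr* and *lhcgr* were near the smallest listed value, at 0.07 and 0.01 FPKM and at 0.13 and 0.09 FPKM. The part of these markers in the differences below was not tested.

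A fish oocyte stops in the prophase of meiosis I while it grows and stores mRNA for the embryo. Maturation starts when CDK1 bound to cyclin B, the kinase pair known as maturation-promoting factor, becomes active. Mos then acts through the MAP kinase pathway to hold the egg in metaphase of meiosis II until fertilization, when the anaphase-promoting complex (APC/C) has cyclin B destroyed. The embryo afterwards divides by quick cycles of replication and mitosis that run on stored maternal products.

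Most of these genes were abundant in both ovaries. Of the 42 genes, 22 were at 100 FPKM or more in both libraries, where 3.39% of all listed genes were, and 24 were among the 1000 highest genes of each library, where 4.06% of all genes were. The median level was 117 FPKM in the library labelled WT and 106 FPKM in the library labelled KO, against 2.01 and 1.94 FPKM over all genes. The highest was *gmnn*, at 956.25 and 848.81 FPKM, which ranked 82 and 85 among all genes. Only 3 genes were under 1 FPKM in both libraries, namely *ccnd1*, *mcm3* and one of the *mcm6* genes, and none was at the smallest listed value of 0.01 FPKM in either.

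**Figure D1:**
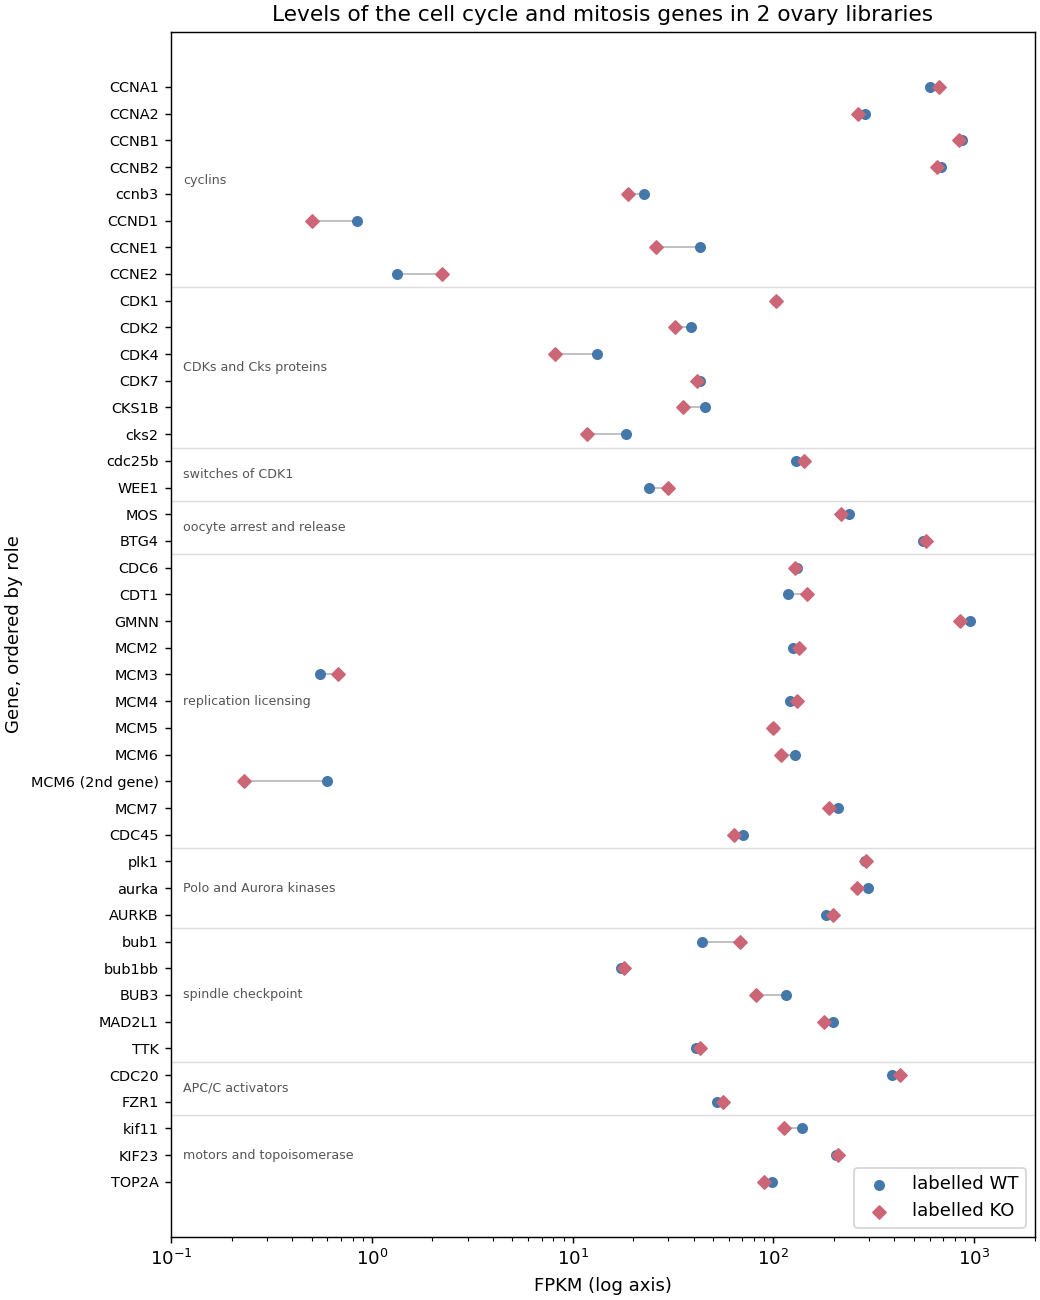
FPKM (log axis) of the 42 genes, ordered by role, with 1 circle for the library labelled WT and 1 diamond for the library labelled KO. Most pairs lie close together. The widest apart is the second MCM6 gene, at 0.6 and 0.23 FPKM, which is the lowest in the library labelled KO. The highest is GMNN at 956.25 and 848.81 FPKM.

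Most of these genes were within 1.4-fold between the 2 libraries, as were most of all genes at 10 FPKM or more. Differences are log2 ratios of KO over WT after 0.1 FPKM was added to both values. A minimum of 1 FPKM in one of the libraries left 39 genes. With the library labelled KO over the other, 0 of them were 2-fold or more higher, against a background of 6.34% of all 13455 genes above this minimum, and 0 were 2-fold or more lower, against 7.89%. At 1.4-fold, the fold threshold of the study without its false discovery rate, 2 were higher (background 15.1%) and 4 lower (background 17.5%), and 33 lay within 1.4-fold. The higher genes were *ccne2* and *bub1*, and the lower genes were *ccne1*, *cdk4*, *cks2* and *bub3*. With a pseudocount of 1 FPKM, *bub3* and *ccne2* no longer passed 1.4-fold, and *bub3* did not pass with trimmed mean or median scaling either. With the 3 genes under 1 FPKM included, 6 of the 42 were lower by 1.4-fold. The median log2 ratio was -0.04, beside -0.02 over all genes, and the ratios ran from -0.71 to 0.70.

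The background falls with level, and most of these genes are at high level, so the shares over all genes given above are not matched to them. The share 2-fold apart was not computed by level. Among all genes whose higher value was 100 FPKM or more, 12.5% were at least 1.4-fold apart, and 1 of the 23 cell cycle genes there was. From 50 to under 100 FPKM the shares were 11.6% of all genes and 1 of 5 cell cycle genes, and from 10 to under 50 FPKM they were 21.2% of all genes and 3 of 10. The median size of the log2 difference at 100 FPKM or more was 0.13 for the cell cycle genes and 0.16 for all genes, so that the set lay near the whole table at this level.

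**Figure D2:**
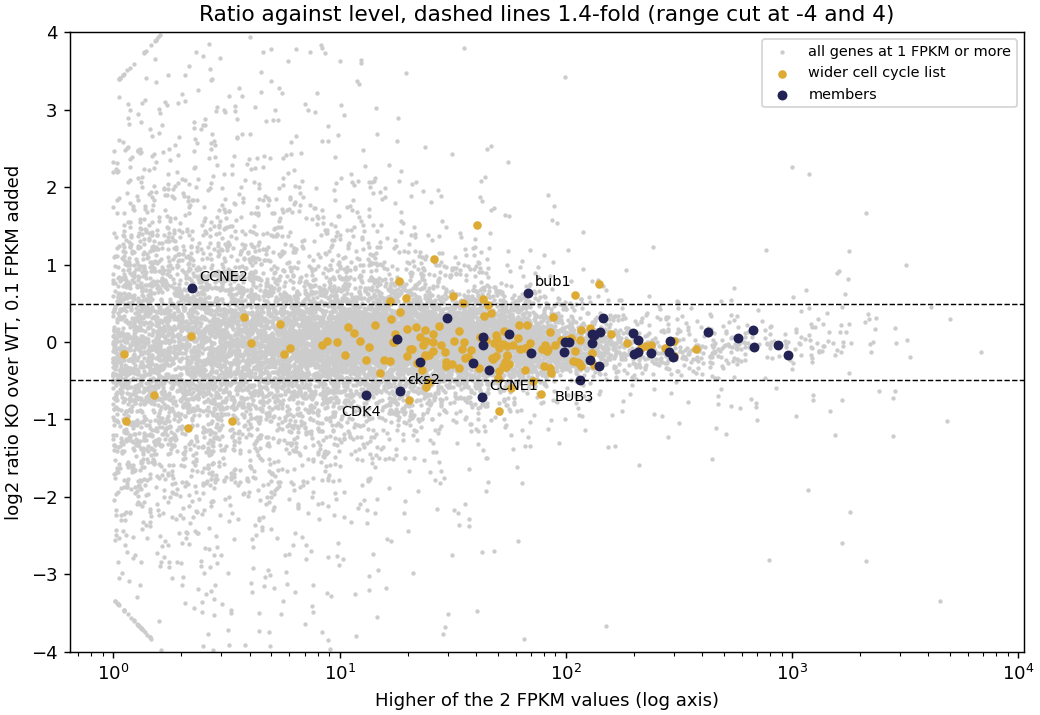
Log2 ratio of KO over WT (0.1 FPKM added) against the higher of the 2 FPKM values (log axis) for the 13455 genes at 1 FPKM or more (those beyond the ends of the vertical axis are not drawn), with the 39 cell cycle genes in dark points and the wider list in yellow. The 6 dark points past the dashed 1.4-fold lines are named, and 5 of them are under 100 FPKM, while the cloud of all genes narrows to the right.

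Cyclins are the regulatory partners of CDKs, and 4 of the 8 measured here as members were far above the others in both libraries. *ccnb1* (CCNB1, ENSDARG00000051923), the cyclin of maturation-promoting factor, was at 866.26 and 841.56 FPKM, and *ccnb2*, of the same family, at 680.64 and 651.62 FPKM. *ccna1*, the cyclin A of germ cells in mammals, was at 604.93 and 670.81 FPKM, and *ccna2*, used in S phase and mitosis of most cells, at 287.09 and 263.18 FPKM. All 4 lay within 1.4-fold between the libraries. *ccnb3*, the third cyclin B, was far lower, at 22.64 and 18.89 FPKM, so that *ccnb1* stood 38.3 and 44.6 times above it.

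Of the FPKM summed over the 8 cyclin genes, *ccnb1* held 34.6% in the library labelled WT and 34.0% in the library labelled KO. *ccnb2* held 27.2% and 26.3%, *ccna1* held 24.1% and 27.1%, and *ccna2* held 11.5% and 10.6%. The order of these cyclins was the same in both libraries except for *ccnb2* and *ccna1*, whose order was reversed in the library labelled KO. With 1 library each, a difference of this size between neighbours cannot be told from the spread between fish.

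**Figure D3:**
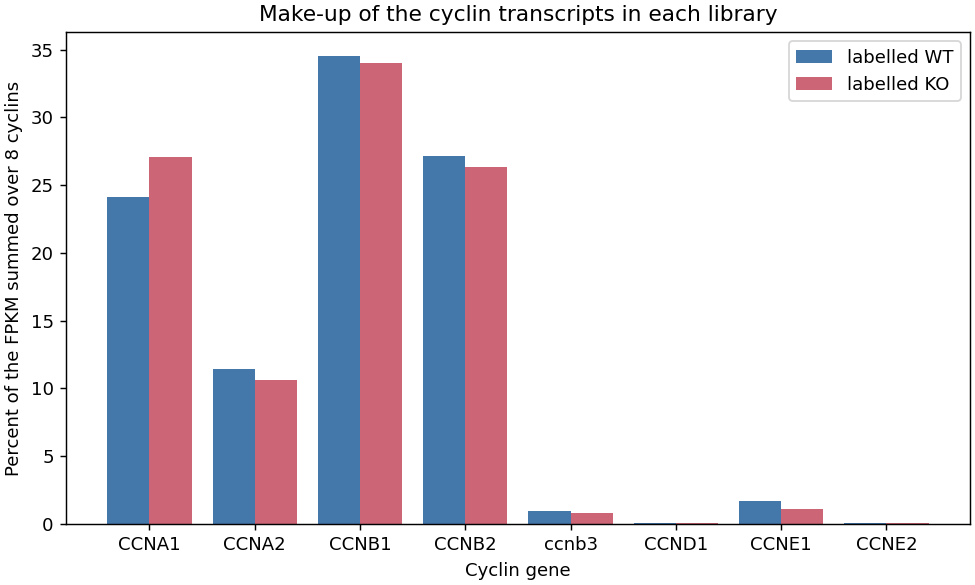
Share of each cyclin gene in the FPKM summed over 8 cyclin genes (percent), with 1 bar for each library. CCNB1 holds 34.6% and 34.0%, and CCND1 and CCNE2 are too low to be seen.

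The cyclins of G1 and of entry into S phase were, like *ccnb3*, far below *ccnb1*, *ccnb2*, *ccna1* and *ccna2*. Of the member cyclins at 1 FPKM or more, only *ccne1* and *ccne2* were 1.4-fold apart, in opposite directions. One CCND2 gene of the wider list described below was also lower by 1.4-fold in the library labelled KO, at 24.86 and 17.3 FPKM. *ccne1* (CCNE1, ENSDARG00000098622), which activates CDK2 at the start of S phase, was at 42.82 FPKM in the library labelled WT and 26.12 FPKM in the library labelled KO, 1.64 times lower in the latter (log2 ratio -0.71). This was the largest ratio below 0 among the 39 genes. In whole ovary RNA, fewer cells of a type and less RNA per cell cannot be told apart. *ccne2* (ENSDARG00000098529), the other cyclin E, was at 1.33 and 2.22 FPKM, 1.67 times higher in the library labelled KO (log2 ratio 0.70), at a level where 51.7% of all genes from 1 to under 10 FPKM were at least 1.4-fold apart. The level of *ccne1* was 32.2 times that of *ccne2* in the library labelled WT and 11.8 times in the library labelled KO. *ccnd1*, the cyclin D that answers to growth factors, was at 0.84 and 0.5 FPKM and did not reach 1 FPKM.

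All 6 genes of CDKs and their Cks partners had log2 ratios below 0, with a median of -0.32. Of these, *cdk4* and *cks2* were lower by 1.4-fold or more in the library labelled KO. Of all genes at 1 FPKM or more, 52.2% had a ratio below 0 and 17.5% were lower by 1.4-fold or more. From 10 to under 50 FPKM, where *cdk4* and *cks2* lie, 21.2% of all genes were at least 1.4-fold apart in either direction. CDK genes of the wider list described below went both ways. Log2 ratios were above 0 for *cdk13*, a kinase of transcription (0.50, at 24.8 and 35.17 FPKM), *cdk8* (0.13) and *cdk5* (0.12). They were below 0 for *cdk6* (-0.68), *cdk9* (-0.31) and *cdk10* (-0.05). *cdk4* (ENSDARG00000087937), the partner of D cyclins, was at 13.14 and 8.15 FPKM, 1.61 times lower in the library labelled KO (log2 ratio -0.68). *cks2* (ENSDARG00000071410), a small protein that binds CDKs and their phosphorylated targets, was at 18.47 and 11.84 FPKM, 1.56 times lower (log2 ratio -0.64). The related *cks1b* was at 45.57 and 35.36 FPKM, a log2 ratio of -0.37. *cdk1* itself, the catalytic part of maturation-promoting factor, was at 103.1 and 102.68 FPKM, nearly equal, and its ratio moved to the other side of 0, to 0.02, when the median of all genes was set to 0. *cdk2* was at 39.05 and 32.39 FPKM and *cdk7*, which activates other CDKs, at 43.07 and 41.8 FPKM. The mitotic kinase thus stood 7.85 times above *cdk4* in the library labelled WT and 12.6 times above it in the library labelled KO, while *ccnb1* stood 8.40 and 8.20 times above *cdk1*.

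The phosphatase and the kinase that turn CDK1 on and off were both slightly higher in the library labelled KO. *cdc25b*, which removes the inhibiting phosphates from CDK1, was at 129.03 and 141.41 FPKM. *wee1*, which adds them, was at 23.98 and 29.71 FPKM, a log2 ratio of 0.31. Both lay within 1.4-fold. The oocyte kinase gene *wee2*, which is not a member and was picked once its values were known, had 165.36 and 156.76 FPKM, which is 6.90 and 5.28 times the level of *wee1*.

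Among the genes of meiotic arrest and release, *mos* (ENSDARG00000069744), the oocyte kinase upstream of MAP kinase, was at 239.09 and 217.41 FPKM. *btg4* (ENSDARG00000035171), which in mouse recruits deadenylase to maternal mRNA at the end of meiosis, was at 558.75 and 577.18 FPKM. Their log2 ratios were -0.14 and 0.05. Both oocyte genes thus had nearly the same level in the 2 libraries.

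Licensing loads the MCM2-7 helicase onto origins of replication through Cdc6 and Cdt1, and geminin blocks Cdt1. *cdc6* was at 130.45 and 128.72 FPKM and *cdt1* at 118.66 and 146.67 FPKM, a log2 ratio of 0.31. The geminin gene *gmnn* was 8.06 times as high as *cdt1* in the library labelled WT and 5.79 times in the library labelled KO, with opposite signs of a small difference in the 2 genes. *cdc45*, which joins the helicase when origins fire, was at 70.18 and 63.51 FPKM. None of the 9 licensing genes at 1 FPKM or more was 1.4-fold apart, and their log2 ratios ran from -0.24 to 0.31. At their levels few of all genes were, with 11.6% from 50 to under 100 FPKM and 12.5% at 100 FPKM or more.

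The helicase genes were at like levels except *mcm3* and one of the MCM6 genes. *mcm2* was at 125.68 and 133.67 FPKM, *mcm4* at 121.14 and 130.37 FPKM, *mcm5* at 99.32 and 99.66 FPKM and *mcm7* at 208.54 and 190.14 FPKM. One MCM6 gene (ENSDARG00000033231) was at 128.12 and 108.82 FPKM, while the other (ENSDARG00000057683) was at 0.6 and 0.23 FPKM, so nearly all MCM6 signal came from 1 of the 2 genes. *mcm3* (ENSDARG00000024204) was at 0.55 and 0.68 FPKM, more than 100 times under the other subunits. The gene *mcm3l* (ENSDARG00000037532), outside the name rule and picked once its values were known, had 177.01 and 184.08 FPKM. With *mcm3l* in the place of *mcm3* and the higher MCM6 gene, the 6 subunit levels lay within 2.10 times of each other in the library labelled WT and 1.91 times in the library labelled KO. Near-identical copies may share reads, and the split within such a pair is uncertain for that reason.

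Polo and Aurora kinases drive centrosome maturation, spindle assembly and chromosome alignment. *plk1* was at 286.88 and 289 FPKM, *aurka*, the kinase of spindle poles, at 296.99 and 260.01 FPKM, and *aurkb*, the kinase of the chromosomal passenger complex, at 182.35 and 198.04 FPKM. Their log2 ratios were 0.01, -0.19 and 0.12, so that none came near 1.4-fold. In the library labelled WT *aurka* stood just above *plk1*, and in the library labelled KO *plk1* stood just above *aurka*.

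The spindle checkpoint delays anaphase until kinetochores are attached, and its genes went both ways. *bub1* (ENSDARG00000077029), a kinase of the kinetochore, was at 43.85 FPKM in the library labelled WT and 67.96 FPKM in the library labelled KO, 1.55 times higher in the latter (log2 ratio 0.63). *bub3* (ENSDARG00000075883), the protein through which Bub1 is held at the kinetochore, was at 115.17 and 82.05 FPKM, lower in the latter (log2 ratio -0.49) and just past 1.4-fold. The ratio of *bub1* to *bub3* was thus 0.381 in the library labelled WT and 0.828 in the library labelled KO. *mad2l1*, whose product inhibits Cdc20, was at 199.13 and 178.93 FPKM, and the kinase gene *ttk* at 41.11 and 42.84 FPKM. *bub1bb*, a gene of the BubR1 family, was at 17.44 and 17.91 FPKM. Its relative *bub1ba*, not a member and picked once its values were known, had 31.58 and 31.24 FPKM. The median log2 ratio of the 5 checkpoint genes was 0.04.

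The pair of APC/C activators had ratios of the same sign and size. *cdc20*, which activates the complex in mitosis and meiosis and is what the checkpoint blocks, was at 388.4 and 426 FPKM. *fzr1a*, the Cdh1 activator of late mitosis and G1, was at 52.3 and 56.36 FPKM. The level of *cdc20* was 7.43 and 7.56 times that of *fzr1a*. The log2 ratios of 0.13 and 0.11 lay well within 1.4-fold. The related *fzr1b*, not a member and picked once its values were known, had the opposite sign, at 2.89 and 2.55 FPKM (log2 ratio -0.17).

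Of the mitotic motors, *kif11*, which pushes spindle poles apart, was at 139.54 and 112.51 FPKM, a log2 ratio of -0.31. *kif23*, a motor of the central spindle in cytokinesis, was at 206.14 and 209.27 FPKM. *top2a*, the topoisomerase that untangles sister chromatids, was at 98.4 and 89.6 FPKM. No gene of this group passed 1.4-fold. At such levels few of all genes did, with 11.6% from 50 to under 100 FPKM and 12.5% at 100 FPKM or more.

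**Figure D4:**
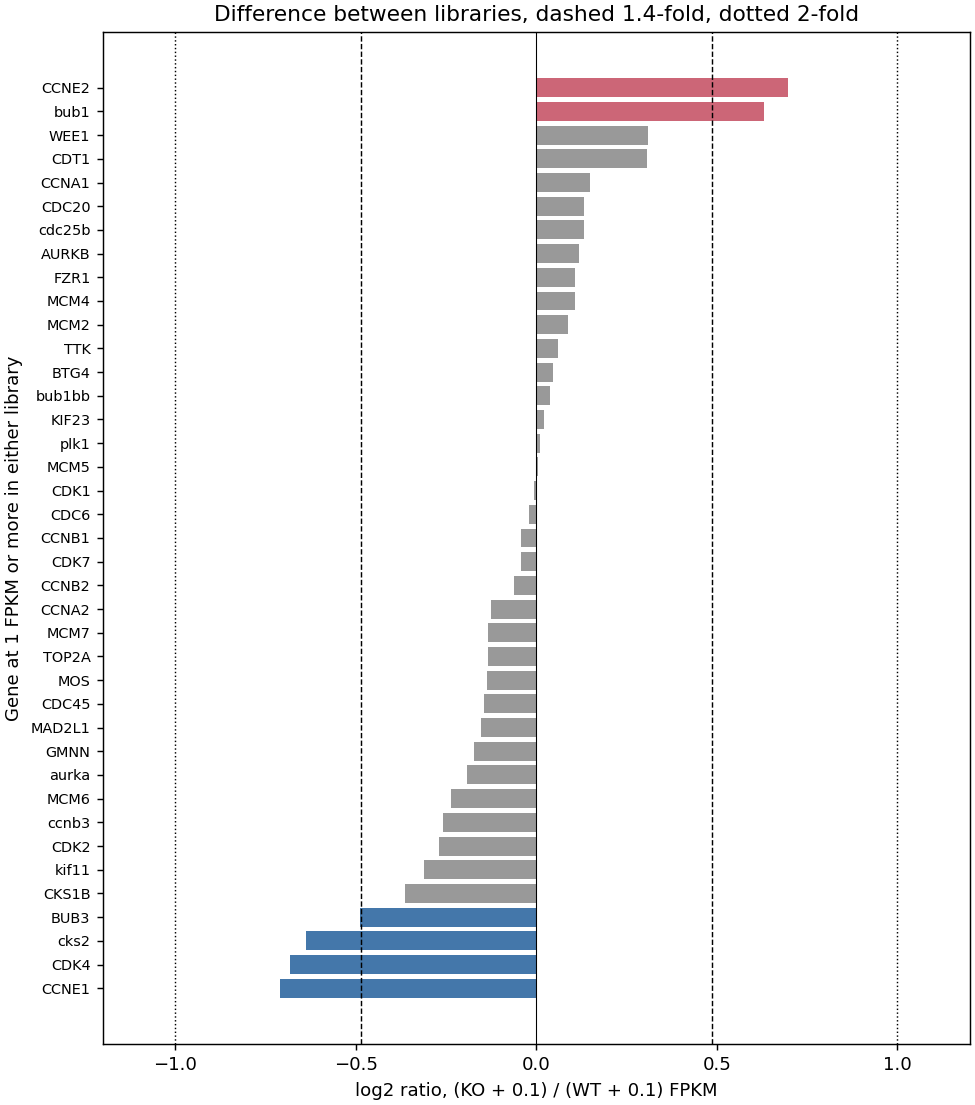
Log2 ratio of KO over WT (0.1 FPKM added) for the 39 genes at 1 FPKM or more, sorted, with dashed lines at 1.4-fold and dotted lines at 2-fold. CCNE2 at 0.70 and bub1 at 0.63 are past the upper dashed line, CCNE1, CDK4, cks2 and BUB3 are at or past the lower one, and no bar reaches a dotted line.

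In a wider list of other cell cycle genes, most were also within 1.4-fold between the libraries. Of its 154 names 148 were matched, which gave 156 further genes, 142 of them at 1 FPKM or more, with a median log2 ratio of -0.07. By 1.4-fold 10 of the 142 were higher and 11 lower in the library labelled KO, beside the backgrounds of 15.1% and 17.5%. These backgrounds are not matched to level. From 1 to under 10 FPKM 4 of 14 were at least 1.4-fold apart, beside 51.7% of all genes. From 10 to under 50 FPKM 11 of 69 were, beside 21.2%. From 50 to under 100 FPKM 4 of 36 were (11.6% of all genes), and at 100 FPKM or more 2 of 23 (12.5%). By 2-fold 2 were higher and 3 lower, beside backgrounds of 6.34% and 7.89%. The higher pair were *E2F4*, a transcription factor that acts with the retinoblastoma family, at 14.03 and 40.32 FPKM, and *numa1*, which gathers microtubules at spindle poles, at 12.49 and 26.24 FPKM. The lower genes were all at low level, namely *PLK2*, a Polo-like kinase, at 2.13 and 0.93 FPKM, the CDK inhibitor *cdkn1ca* at 3.34 and 1.59 FPKM, and *smc1b*, a cohesin of meiosis, at 1.14 and 0.51 FPKM.

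By group, the medians of the wider list lay between -0.10 and 0.08. The 17 APC/C subunits and regulators had a median of -0.10, and *fbxo43*, the APC/C inhibitor that holds metaphase arrest of the egg, was at 146.72 and 157.65 FPKM, with *fbxo5* at 275.46 and 260.43 FPKM. The 26 genes of the origin complex and the fork had a median of -0.07, with the sliding clamp gene *pcna* at 238.55 and 232.42 FPKM. Among the 13 kinetochore genes (median -0.07) *cenpe*, a kinetochore motor, was at 116.7 and 94.01 FPKM. By 1.4-fold 1 of them was higher and 1 lower, both named once their values were known. Of all genes at 1 FPKM or more, 15.1% were higher and 17.5% lower. The higher was *knl1*, the scaffold to which Bub1 and Bub3 bind, at 10.54 and 18.34 FPKM, and the lower *ndc80*, at 71.58 and 50.61 FPKM. The 18 cohesin and condensin genes at 1 FPKM or more had a median of -0.06, with *smc4*, of condensin, at 133.6 and 109.13 FPKM. The 13 genes of CDK inhibitors, the retinoblastoma family and E2F factors at this level had a median of 0.08 and the widest span, from -1.03 to 1.52. The 17 other cyclin and CDK genes had a median of -0.02, with *ccng1*, a cyclin under p53 control in mammals, at 302.11 and 266.72 FPKM.

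The group of other CDK1 switches and the MAP kinase arm of maturation was the most even of the wider list. None of the 12 at 1 FPKM or more was 1.4-fold apart, and their median was 0.01. Most of all genes at 10 FPKM or more were not 1.4-fold apart either. The shares apart were 21.2% from 10 to under 50 FPKM, 11.6% from 50 to under 100 FPKM and 12.5% at 100 FPKM or more. *cpeb1*, which binds stored mRNAs such as that of cyclin B1 and controls their poly(A) tails, was at 300.46 and 301.71 FPKM, *arpp19*, which inhibits the phosphatase that opposes CDK1, at 131 and 119.07 FPKM, and *mapk3* at 57.88 and 67.22 FPKM. The 26 genes of spindle and cytokinesis had a median of -0.09, with *tpx2*, the activator of Aurora A, at 377.19 and 355.56 FPKM.

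**Figure D5:**
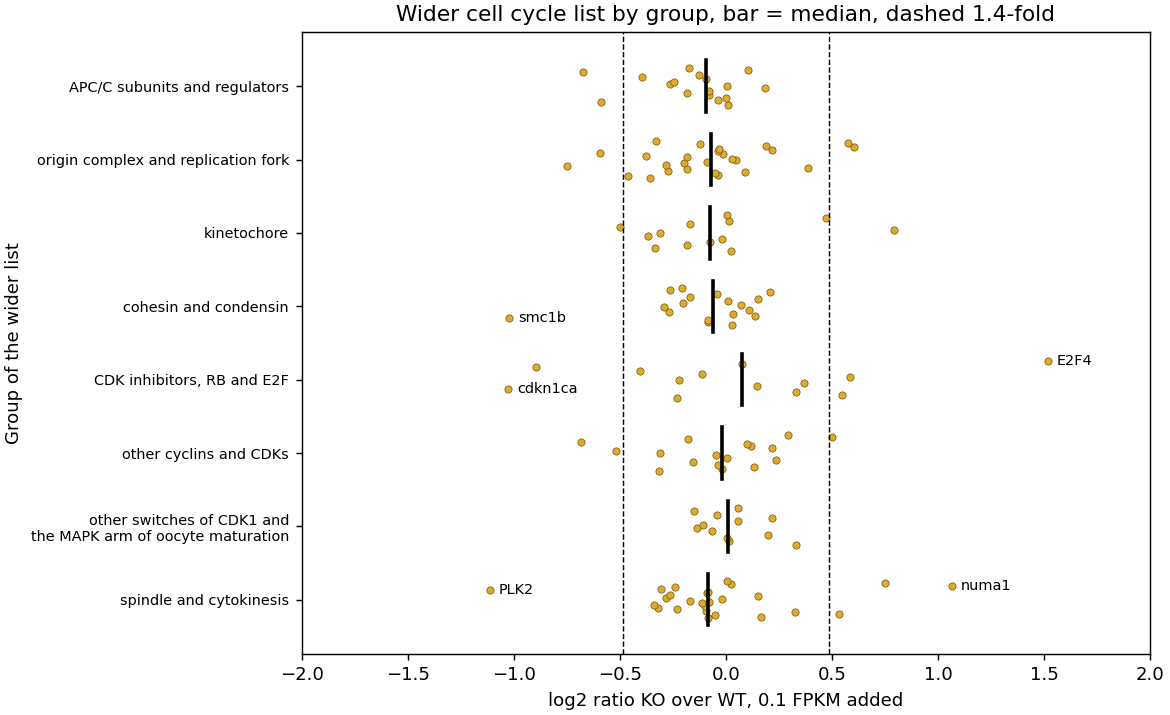
Log2 ratio of KO over WT (0.1 FPKM added) for the 142 genes of the wider list at 1 FPKM or more, by group, with 1 point per gene, the median as a black bar and dashed lines at 1.4-fold. The medians lie between -0.10 and 0.08, and the 5 named points are those at least 2-fold apart.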

How the data were processed

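Poly(A) RNA of each ovary pool was sequenced on a BGISEQ-500 as single-end reads. For mapping the authors used HISAT (genome) and Bowtie2 (reference genes), and they deposited FPKM per gene from RSEM, scaled for transcript length and library size, with 2 decimals and a smallest value of 0.01. The submitters' processing notes name the build GRCz10, and no tool versions are named in these sources. Symbols were found for 20336 of 22328 IDs. Names were matched ignoring case, otherwise by RefSeq synonyms (GRCz12tu), otherwise after dropping a final a or b, keeping every gene under a name. RefSeq gives *cdc25a* as a synonym of *cdc25b*, which was counted as a member only. Members and lists were chosen with earlier results of these data known.

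Log2 ratios used a pseudocount of 0.1 FPKM, and counts and medians took genes with 1 FPKM or more in at least one library. With 1 library per genotype no test was run. All members were named, with genes of the wider list and markers that were 2-fold apart or high. Calculations used Python 3.11.15, numpy 2.4.6 and pandas 2.3.3 and were tested on simulated data. Alternatives were other pseudocounts (0.01 and 1 FPKM), filters, scalings, names of a single gene and means.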

Additional observations from a re-analysis of the deposited data

How the results depend on the processing

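No paired analysis was possible because each genotype has 1 library, and for the same reason no library could be left out. The medians of the members and of the wider list stayed below 0 and moved by less than 0.1 under every alternative run, and the count at least 2-fold higher stayed 0. With a pseudocount of 1 FPKM, or with genes at 5 FPKM or more, 1 member in place of 2 was at least 1.4-fold higher, since *ccne2* is low. With all genes above 0.01 FPKM, 1 member in place of 0 was at least 2-fold lower, the second MCM6 gene, and 6 in place of 4 were at least 1.4-fold lower. The log2 ratio of *bub3* was -0.48 with a pseudocount of 1 FPKM and -0.47 with trimmed mean or median scaling, short of 1.4-fold, so 3 members in place of 4 were lower. The other 267 values of single genes kept their side of 1.4-fold. Of the alternatives, only pseudocounts and scalings can change the ratio of a gene. Filters and names of a single gene leave it as it was, so the values under them could not move. Scaling moved all ratios by 0.02. Counting error per gene is unknown, and genes from 1 to under 10 FPKM were most often 1.4-fold apart among those at 1 FPKM or more.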

Other observations

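The genes of the cyclin D and CDK4/6 step, which carries cells through G1, are given side by side. They form no list set beforehand and were put together after their values were seen. The direction that most of them share is thus no result about the step. Of all genes at 1 FPKM or more, 17.5% were lower in the library labelled KO by 1.4-fold or more. One CCND2 gene was at 24.86 and 17.3 FPKM and *cdk6* at 1.52 and 0.91 FPKM. *ccnd3* had the opposite direction, at 4.62 and 5.46 FPKM. Of the E2F genes in the wider list, *e2f3* was at 50.63 and 27.21 FPKM, opposite to *E2F4*, and *e2f6* was at 29.28 and 42.88 FPKM. *E2F5* at 47.59 and 40.83 FPKM and *E2F8* at 15.1 and 11.37 FPKM lay within 1.4-fold. None of these differences has a replicate behind it.

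Endothelial markers were low in both libraries, and the 5 of them summed to 2.27 and 4.34 FPKM. Higher in the library labelled KO were *kdrl*, at 0.99 and 2.21 FPKM, and FLI1, at 0.52 and 1.17 FPKM. Both reached 1 FPKM in that library only. From 1 to under 10 FPKM 51.7% of all genes were at least 1.4-fold apart, and 6.34% of all genes at 1 FPKM or more were 2-fold higher. Under 1 FPKM in both libraries, *cdh5* (0.31 and 0.47 FPKM) and *pecam1a* (0.32 and 0.4 FPKM) had smaller differences in the same direction. TIE1 fell instead, from 0.13 FPKM in the library labelled WT to 0.09 FPKM in the library labelled KO. The 8 leukocyte marker genes summed to 9.87 and 11.1 FPKM, with the lysozyme gene *lyz* at 0.49 and 1.48 FPKM, while *ptprc* at 0.64 and 0.43 FPKM and *lcp1* at 1.1 and 0.81 FPKM had the opposite direction and *cd74a* was at 5.21 and 5.58 FPKM. The 5 red blood cell markers summed to 14.7 and 25.4 FPKM, nearly all of it from *hbaa1* alone (12.8 and 23.05 FPKM). All others of this group were under 1 FPKM in both libraries. Among them 1 SLC4A1 gene was lower in the library labelled KO (0.6 and 0.49 FPKM), and the rest were higher. The sum is thus mainly the level of 1 gene. For the 4 stromal markers the sums were 9.55 and 7.14 FPKM. The 6 genes listed as sperm and testis markers summed to 52.5 and 38.3 FPKM. Most of this sum was *piwil1*, nearly equal at 33.5 and 34.18 FPKM, and *spata18* had 16.89 and 2.75 FPKM.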
